A study of Sus scrofa with 14 samples.

Results

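Topologically associating domains (TADs) of at least 1 Mb were picked out of the 4 autosomal TAD lists of pig adipose tissue, each list kept apart. They numbered 229 of 3906 TADs in wild boar greater omentum (GOM), 278 of 3850 in wild boar upper layer of backfat (ULB), 299 of 3682 in Bama pig GOM and 261 of 3942 in Bama pig ULB, or 1067 of 15380 in all. A large TAD was called stable when each of the 4 lists held a TAD with both ends within 40 kb of its own, and TADs of 320 to 620 kb, 1884 to 2033 per list, served for comparison. The members were thus chosen by their measured size, and the stable ones by the measured ends of the TADs, so both are given as descriptions without a test.

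GOM is a visceral fat depot and ULB a subcutaneous one, and both were taken from adult females, 2 years old: wild boars, caught young and then kept in captivity, and Bama pigs, a small Chinese breed. No treatment was given, and the study names 4 animals in all. Each combination of breed and depot had 2 Hi-C and 2 RNA-seq libraries, except Bama pig ULB with 1 of each (replicate 2). The authors called each TAD list on merged replicates, so a list has no replicate error, and the Bama pig ULB list drew in part on a library of an earlier study that was not analysed here. The RNA-seq libraries held 10833153 to 18627076 estimated counts. Summed adipocyte markers reached 8940 to 16500 TPM (a transcript's share of a library, corrected for length) in all 7. Summed mesothelial markers (2 of 6 listed genes found) stood at 25.9 to 99.6 TPM in GOM and at 0 to 0.422 TPM in ULB, skeletal muscle markers at 291 TPM in wild boar ULB replicate 1 against 2.03 to 6.41 TPM elsewhere, and liver markers at 522 and 1390 TPM in Bama pig GOM against 186 to 261 TPM elsewhere. In bulk tissue, fewer cells of a type and less RNA per cell cannot be told apart.

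A TAD is a stretch of chromosome whose loci contact each other more often than loci beyond its edges, and many of its edges carry sites for the insulator protein CTCF facing into the domain. Large, gene-poor domains are known around developmental regulators, whose enhancers can lie far from the promoter. Domains also differ in compartment, the active A or the inactive B, read here from the sign of the first principal component (PC1) of the contacts in 20-kb bins.

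The CTCF core motif was searched as CCA, then any 2 bases, then AGGGGGC, on both strands of the Sscrofa11.1 genome. It occurred 7164 times on the autosomes, and 10.9% of all 80-kb windows held a plus-strand match and 11.4% a minus-strand match. A match within 40 kb of an edge and facing into the TAD was found at 13.0% of the edges of stable large TADs (12.2% to 13.8% over the lists) and one facing out at 7.36% (6.38% to 8.51%). At edges of stable 320 to 620 kb TADs the shares were 16.9% and 15.2%. Inward matches at both edges were held by 3 of the 94 stable large TADs of the wild boar GOM list (3.19%). Among stable 320 to 620 kb TADs of that list, 45 of 1113 (4.04%) held them, so the arrangement was no more common in large TADs. The large ones were the TAD of *TBX3*, a T-box transcription factor, at chr14:36460001-37620000, and that of *ZMIZ1*, a transcriptional coregulator, at chr14:80500001-81640000. The last was that of *TNP1*, which encodes a sperm chromatin protein, at chr15:118880001-119900000. The match nearest each edge is printed here 5′ to 3′ on the strand named, with 24 bases on either side and the match in capitals, because these 3 TADs show the arrangement with one start site in a megabase.
TBX3 left edge, plus strand, chr14:36460697-36460756: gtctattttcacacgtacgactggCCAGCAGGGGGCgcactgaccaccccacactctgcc
TBX3 right edge, minus strand, chr14:37632984-37633043: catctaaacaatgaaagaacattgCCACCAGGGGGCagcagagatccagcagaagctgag
ZMIZ1 left edge, plus strand, chr14:80485570-80485629: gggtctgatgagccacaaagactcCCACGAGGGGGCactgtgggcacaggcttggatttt
ZMIZ1 right edge, minus strand, chr14:81624536-81624595: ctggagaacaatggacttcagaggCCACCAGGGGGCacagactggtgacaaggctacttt
TNP1 left edge, plus strand, chr15:118870726-118870785: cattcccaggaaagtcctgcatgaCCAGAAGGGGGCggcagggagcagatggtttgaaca
TNP1 right edge, minus strand, chr15:119926436-119926495: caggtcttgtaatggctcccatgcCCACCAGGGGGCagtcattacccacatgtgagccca

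All 3 right-edge matches read CCACCAGGGGGC, whereas the left-edge matches differed from one another at the open positions. The matches of the *TBX3* TAD lay 726 bp inside its left edge and 13013 bp outside its right edge. Those of *ZMIZ1* lay 14401 bp outside and 15435 bp inside, and those of *TNP1* 9245 bp and 26465 bp outside. Edges are known only to the 20-kb bin, and a match is a description of the letters, not a measured CTCF site. *TBX3* was expressed at 8.0 and 3.58 TPM in wild boar GOM, 4.45 and 4.52 TPM in wild boar ULB, 11 and 5.6 TPM in Bama pig GOM and 2.46 TPM in Bama pig ULB, and *ZMIZ1* at 6.72 to 53.9 TPM. *TNP1* was listed at 0 in all 7 libraries.

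Large TADs were gene-poor. They covered 13.2% to 17.7% of the autosomes and held 2.68 ± 0.511 transcription start sites of protein-coding genes per Mb (SD over 4 lists, range 2.02 to 3.26), against 9.42 ± 0.148 in TADs of 320 to 620 kb and 7.62 to 7.74 over all TADs. The range of the large TADs lay wholly below that of the comparison class in each list. Their median size was 1200 to 1230 kb and the longest measured 3140 kb. Gene bodies covered 31.3% of their sequence against 52.3%, and their GC content was 39.2% against 42.8%. Just inside the threshold, TADs of 1000 to 1100 kb held 1.75 to 4.52 genes per Mb, and just outside it TADs of 900 to 1000 kb held 3.07 to 5.76.

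The genes were spread unevenly over the large TADs. The median large TAD held 1 gene start against 3 in the comparison class, and 20.1% to 24.9% held none against 13.0% to 14.7%. By contrast, the 10 to 21 large TADs per list with at least 10 genes held 40.4% to 64.8% of all genes in large TADs, up to 83 genes in one. These 2 kinds of large TAD differed in gene length. Genes in large TADs with 1 or 2 start sites had a median length of 146 to 153 kb, those in large TADs with 10 or more 8.8 to 11 kb. Pooled over all large TADs, the median gene length was 20.5 kb (15.3 to 28.1 kb) against 21.0 kb in the comparison class, a ratio of 0.97 that ran from 0.726 to 1.35 over the lists. Among stable TADs alone the ratio was 1.95 (1.62 to 2.10). Genes longer than 200 kb made up 10.8% to 17.8% of the genes in large TADs and 6.07% to 6.36% of those in the comparison class.

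**Figure D1:**
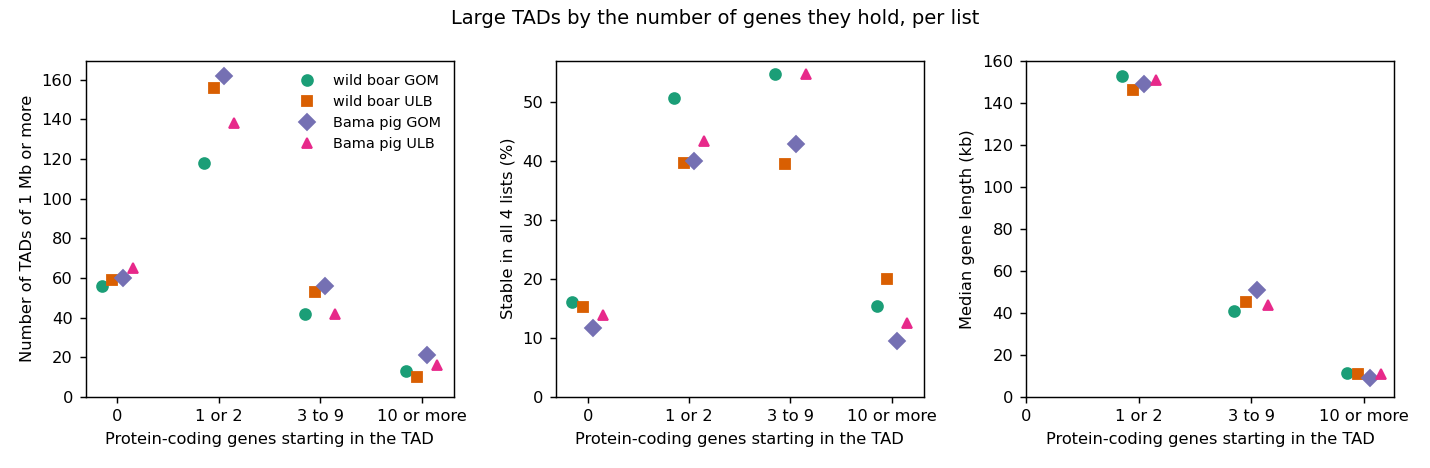
Large TADs of each of the 4 lists by the number of protein-coding genes that start in them: the number of TADs (left), the percentage stable in all 4 lists (middle) and the median gene length in kb (right), 1 symbol per list. TADs with 1 or 2 genes are the most numerous (118 to 162 per list) and hold genes with a median length of 146 to 153 kb, while those with no gene or with 10 or more are stable in 9.52% to 20.0% of cases.

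Genes of large TADs thinned out from the edge inwards. The 100 kb outside the edges held 6.78 gene starts per Mb (6.60 to 7.13 over the lists), the first 100 kb inside 4.08 (3.53 to 4.48) and the stretch from 400 to 500 kb inside 2.35 (1.62 to 3.04). The 3 ranges did not overlap. Around TADs of 320 to 620 kb the same outer and inner zones held 12 and 10.8 gene starts per Mb. From 100 to 160 kb inside, the number fell to 8.72 in that class and to 3.3 in large TADs, so that gene starts thinned inwards in both. The percentage of bins in compartment A fell in step around large TADs, from 35.8% in the 100 kb outside to 30.3% just inside and 26.6% at 400 to 500 kb, and stood at 56.7% and 57.5% on the outer and inner side of the comparison class.

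**Figure D2:**
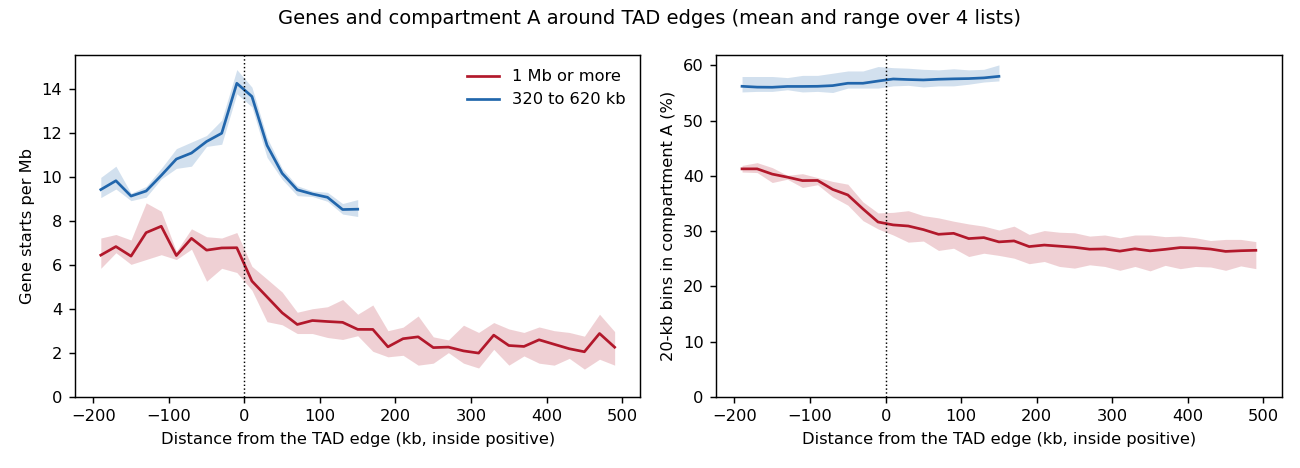
Gene starts per Mb (left) and the percentage of 20-kb bins in compartment A (right) against the distance from the nearer TAD edge in kb, inside positive, for TADs of 1 Mb or more and of 320 to 620 kb. Lines are means over the 4 lists and shading is their range. Around large TADs both curves fall towards the interior, to 2.35 genes per Mb and 26.6% in A at 400 to 500 kb.

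Stability differed with gene number. In all, 94, 94, 98 and 94 large TADs of the wild boar GOM, wild boar ULB, Bama pig GOM and Bama pig ULB lists were stable, or 41.0%, 33.8%, 32.8% and 36%, against 54.8% to 56.9% of the comparison class at the same tolerance in kb. Of the large TADs without a gene 11.7% to 16.1% were stable, of those with 1 or 2 genes 39.7% to 50.8%, of those with 3 to 9 genes 39.6% to 54.8% and of those with 10 or more 9.52% to 20.0%. The order of low, high and low held in each of the 4 lists, with only 2 stable TADs of the densest kind per list. Of the 94 stable large TADs in wild boar GOM coordinates, 88 measured 1 Mb or more in every list and 14 had the same ends in all 4. They spanned 118.3 Mb and held 221 genes, 1.87 per Mb: 9 held none, 60 held 1 or 2, 23 held 3 to 9 and 2 held at least 10.

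Most of the longest stable large TADs held 1 gene start or none. *ZNF608*, a zinc finger gene, was the one start site in 2280 kb at chr2:127140001-129420000, with gene bodies over 4.76% of the sequence. No protein-coding gene started in the 2100 kb of chr6:129840001-131940000 or in the 1840 kb of chr3:104200001-106040000. The 1860 kb of chr3:19780001-21640000, 32.6% under gene bodies, held 6 genes, among them *HS3ST4*, a heparan sulfate sulfotransferase gene of 512 kb listed at 0 TPM in all 7 libraries, *AQP8*, an aquaporin gene at 0.0588 to 0.804 TPM, and *ZKSCAN2*, a zinc finger gene at 0.132 to 0.982 TPM. *CITED2*, which encodes a transcriptional coregulator of 2.87 kb, stood alone in the 1840 kb of chr1:23320001-25160000, where gene bodies covered 0.156%. *CITED2* was nevertheless well expressed, at 74.1 and 111 TPM in wild boar GOM, 47.2 and 94.3 TPM in wild boar ULB, 178 and 72.8 TPM in Bama pig GOM and 64.8 TPM in Bama pig ULB, with all groups overlapping. *EPHA4*, an ephrin receptor gene, stood alone in the 1840 kb of chr15:121720001-123560000 at 4.35 to 10.9 TPM.

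Other lists split large TADs more often than smaller ones. Over the 12 ordered pairs of lists, an edge of the other list lay inside 35.6% of large TADs (21.8% to 46.8%), more than 40 kb from both ends, against 10.6% (7.63% to 14.2%) of TADs of 320 to 620 kb. A longer TAD offers more room, and per Mb of the span searched the numbers were closer, 0.394 inner boundaries (0.213 to 0.511) against 0.308 (0.215 to 0.427). Both ends were kept for 54.1% of large TADs against 72.8%, and 9.78% against 15.2% lay inside a wider TAD. Lists of the same depot kept 61.0% of each other's large TADs on average, and lists of the same breed 50.9%. Pairs of lists that share neither kept 48.5% to 53.7%, a range that holds the value of the same breed. All 3 other lists split 14%, 15.8%, 26.1% and 12.3% of the large TADs of the wild boar GOM, wild boar ULB, Bama pig GOM and Bama pig ULB lists. The highest share belonged to the list with the fewest TADs.

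The 5 longest of the 186 large TADs split in all 3 other lists held 0 to 3 gene starts each. The longest, 3140 kb of the Bama pig GOM list at chr15:8880001-12020000, held *KYNU*, an enzyme gene of tryptophan breakdown, and *LRP1B*, a lipoprotein receptor family gene of 1890 kb. The next, of the same list, held *FSTL5* (2760 kb at chr8:48400001-51160000) and *ZNF804A* with *FSIP2* (2720 kb at chr15:88680001-91400000). The fourth, of the wild boar GOM list, held *ZEB2*, a repressor gene of epithelial genes, and *GTDC1* (2600 kb at chr15:6060001-8660000), and the fifth, of the wild boar ULB list, held no gene start (2420 kb at chr13:171060001-173480000). *FSTL5*, a follistatin-like gene, was listed at 0 in both wild boar GOM libraries, at 0.293 and 0.593 TPM in wild boar ULB, at 2.95 and 4.11 TPM in Bama pig GOM and at 1.04 TPM in Bama pig ULB. The breeds did not overlap, but the difference missed the threshold (edgeR adjusted p = 0.125). *LRP1B* ranged from 0.0728 to 6.24 TPM and *GTDC1* from 11.6 to 28.0 TPM, with breeds and depots overlapping.

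Large TADs present in 2 lists and split in the other 2 were counted along the depots, the breeds and the crossed pairs of lists. Of 170 large TADs matched between the ULB lists, 29 (17.1%) were split in both GOM lists, and of 149 matched between the GOM lists, 19 (12.8%) were split in both ULB lists. Of 128 large TADs matched between the wild boar lists 3 (2.34%) were split in both Bama pig lists, and of 143 matched between the Bama pig lists 9 (6.29%) were split in both wild boar lists. The crossed pairs, which share neither breed nor depot, gave 1 of 123 (wild boar GOM with Bama pig ULB) and 11 of 139 (wild boar ULB with Bama pig GOM). The 9 of the Bama pig pattern are thus no more than the 11 of a crossed pair. No list has a replicate, so these counts carry no error.

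**Figure D3:**
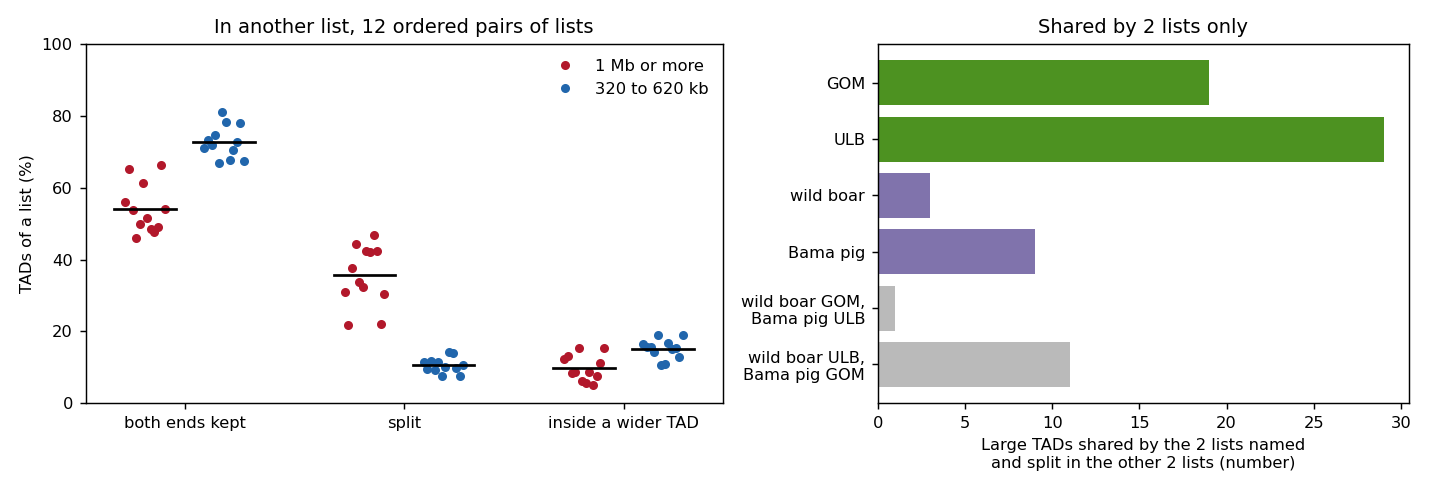
Left, the percentage of TADs of 1 Mb or more and of 320 to 620 kb whose ends were kept, that were split or that lay inside a wider TAD in another list, with 1 point per ordered pair of the 4 lists and the mean as a line. Right, the number of large TADs shared by the pair of lists named and split in both others, with depot pairs in green, breed pairs in purple and crossed pairs in grey: 19 and 29 for the depots, 3 and 9 for the breeds, 1 and 11 for the crossed pairs.

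The 29 large TADs kept in ULB alone, meaning matched in both ULB lists and split in both GOM lists, held 111 genes. A split needs only 1 edge inside, so a TAD with a moved end also counts, and GOM can hold a large TAD there. The ULB TAD at chr7:37280001-38520000, for example, overlapped one of the Bama pig GOM list at chr7:36940001-38440000. The start of *NEGR1* lay in a Bama pig GOM TAD of 1740 kb. *IRX3*, a homeobox gene, shared its 1200-kb TAD at chr6:30520001-31720000 with *FTO*, an RNA demethylase gene, *RPGRIP1L* and *AKTIP*. *NEGR1*, an adhesion protein gene of neurons, stood alone in 1120 kb at chr6:140760001-141880000, *ISL1*, a LIM homeobox gene, alone in 1020 kb at chr16:30960001-31980000, and *RUNX2*, a regulator of bone formation, shared 1260 kb at chr7:39440001-40700000 with *SUPT3H*. Bins of the 29 TADs were in compartment A for 14.4% and 15% in wild boar GOM, 12.5% in each of the Bama pig GOM libraries, 16.5% and 14.6% in wild boar ULB and 18.6% in Bama pig ULB. The depots overlapped.

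Expression between the depots was set beside these TADs with edgeR over 17934 genes of the 7 libraries, where 3.5% of all genes passed an adjusted p of 0.05 with an absolute log2 fold change above 1. Of the 75 tested genes in the 29 TADs, 10 (13.3%) were called, 6 higher and 4 lower in GOM, and they lay in 7 of the TADs. Of the 67 tested genes in the 19 TADs kept in GOM alone, 2 (2.99%) were called. These genes were picked after their values had been seen.

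*IRX3* fell in GOM, from 16.0 and 13.1 TPM in wild boar ULB and 6.37 TPM in Bama pig ULB to 1.66, 4.26, 1.2 and 1.26 TPM in the GOM libraries (log2 fold change -2.33 ± 0.42 SE, edgeR adjusted p = 0.014). *NEGR1* fell as well, from 20.0, 12 and 13.2 TPM in ULB to 0.142, 1.81, 0.982 and 3.09 TPM in GOM (-3.48 ± 0.70, edgeR adjusted p = 0.0218). The other genes lower in GOM were *CDH13*, the cadherin that binds adiponectin, at 107, 127 and 133 TPM in ULB and 24.5 to 46.3 TPM in GOM, and *GRIA4*, a glutamate receptor gene, at 4.32 to 13.2 TPM and 0.795 to 1.41 TPM. None of these 4 genes overlapped between the depots, which adds no further support because they were called in the same libraries.

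The genes higher in GOM included *SEMA5A*, a semaphorin gene, at 41.7, 21.2, 63.7 and 47.4 TPM in GOM and 6.69, 6.83 and 10.2 TPM in ULB (2.24 ± 0.28, edgeR adjusted p = 0.002). *PTK7*, *GNMT* and *CNPY3* came from a single dense TAD, and *CASP1* from the TAD of *GRIA4*. *ISL1* stood at 2.52 to 7.46 TPM in GOM, at 0 in both wild boar ULB libraries and at 0.0694 TPM in Bama pig ULB. *FTO*, at 22.4 to 48.7 TPM in GOM and 15.9 to 26.6 TPM in ULB, and *RUNX2*, at 0.971 to 11.8 and 3.29 to 9.28 TPM, overlapped between the depots and did not pass. In the TADs kept in GOM alone, *GATA5*, a transcription factor gene, stood at 9.24 to 22.5 TPM in GOM and at 0.038 to 0.0427 TPM in ULB. *NR3C1*, the glucocorticoid receptor gene in such a TAD, stood at 28.2 to 83.8 TPM with depots overlapping. Mesothelial markers moved with the same contrast, and so did the summed level of 5 lymphocyte markers, at 41.2, 58.2, 61.4 and 53.5 TPM in GOM and 21.4, 26.9 and 26.5 TPM in ULB. Neither overlapped between the depots, and their part in these differences was not tested.

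Large TADs lay mostly in compartment B. In the 7 Hi-C libraries 26.8% ± 2.57 of their bins (SD, n = 7; 22.5% to 29.7%) were in A, against 57.1% ± 1.19 (55.8% to 58.8%) in TADs of 320 to 620 kb and 48.7% to 50.8% of all bins. The classes did not overlap in any library. PC1 comes from the same contacts as the TADs, so no test was made. In stable TADs the shares were 39.5% ± 1.79 and 64.4% ± 1.08. Per list, 51.2% of large TADs had all bins in B, 13.9% all bins in A and 34.9% both. Those wholly in B held 0.955 genes per Mb, were stable in 25.0% of cases and were split in 42.9% of the pairs with another list. Those wholly in A held 9.84 genes per Mb, and 49.0% were stable and 28.4% split. Those with both states held 2.48 genes per Mb, with 47.2% and 27.4%. Of the 94 stable large TADs, 10 were wholly in A in all 7 libraries, 25 were wholly in B and 59 were mixed. Those in A were the TADs of *EBF1*, *TCF7L2*, *ZMIZ1*, *JARID2*, *SPRY1*, *PDGFRA*, *BTG1*, *COX6C*, *SDC2* and *RNASEH2B*. Those in B included the TADs of *RORB* and *ID4*, so regulator genes started in both kinds.

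**Figure D4:**
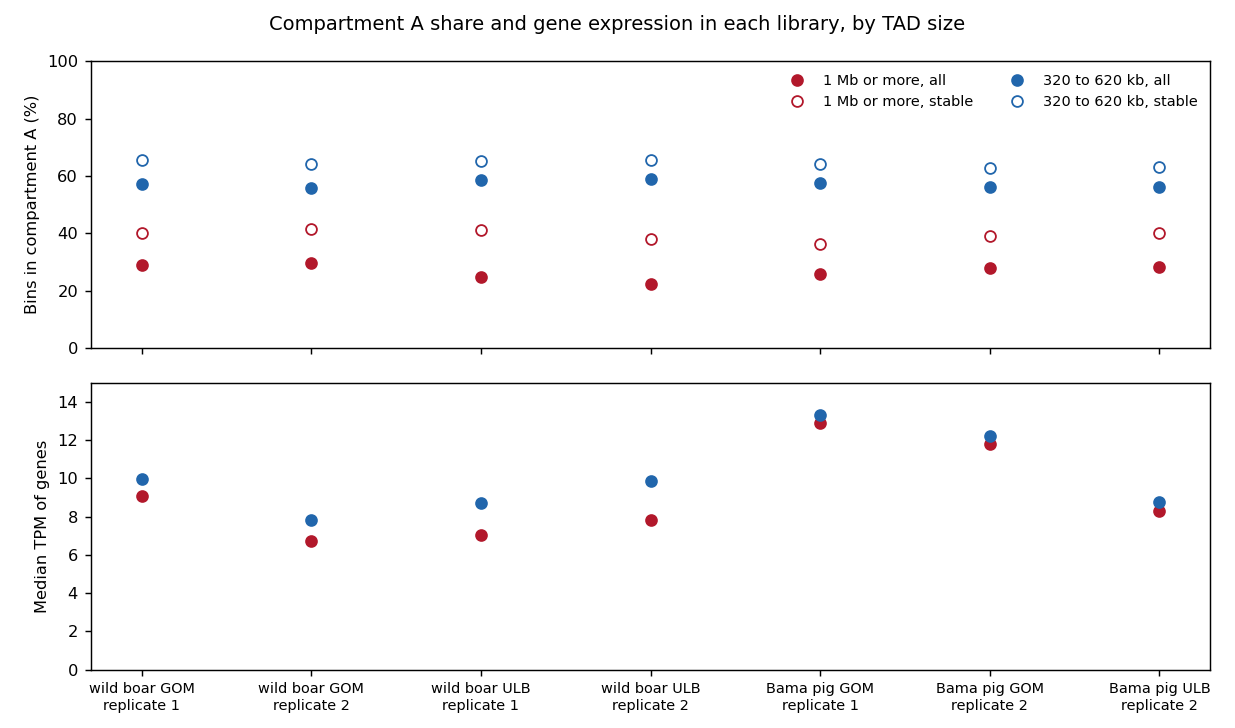
Percentage of bins in compartment A (top; filled circles all TADs, open circles stable TADs) and median TPM of genes (bottom) in each of the 7 libraries, for TADs of 1 Mb or more and of 320 to 620 kb. The A share of large TADs stays between 22.5% and 29.7%, below the 55.8% to 58.8% of the comparison class, and the median TPM of large TADs (6.7 to 12.9) lies below that of the comparison class (7.82 to 13.3) in each library.

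At TPM above 0.1 the share of genes expressed did not differ beyond the spread between animals, while the median level was lower in large TADs. At TPM above 1 the share was 75.9% ± 3.0 in large TADs and 76.8% ± 2.12 in the comparison class (SD, n = 7 libraries). That share was lower in large TADs in the mean of each animal, though not in each library. TPM above 0.1 was reached by 89.1% ± 2.02 of the genes of large TADs (SD, n = 7 libraries) and by 89.0% ± 1.65 of those of the comparison class. With the replicate number of a breed taken as the animal, the difference was 0.166 ± 0.338 percentage points over 4 animals, above 0 in 2 of 4 (exact two-sided sign-flip permutation test p = 0.5, where 4 animals cannot give a p below 0.125). With the library as the unit it was 0.122 ± 1.36 percentage points, above 0 in 4 of 7 (exact two-sided sign-flip permutation test p = 0.859). Among genes starting in A alone it was 2.3 and among those starting in B alone 2.39, above 0 in 4 of 4 animals. By library it was 1.78, 1.59, 0.474 and 0.246 percentage points in the GOM libraries and -2.14, -0.709 and -0.378 in the ULB libraries. Each library was scored on the TAD list of its own breed and depot, so the genes compared differ between lists. Large TADs of the wild boar ULB list held 475 placed genes, 152 of them in TADs with 10 or more genes. Those of the Bama pig GOM list held 821, with 468 in such TADs. Depot and gene set can therefore not be told apart in the opposite signs of the depots. The median was 9.09 ± 2.38 TPM against 10.1 ± 1.99 TPM and was lower in large TADs in all 7 libraries. With the start site in A the medians were 13.3 ± 2.58 and 12.1 ± 2.26 TPM, and with the start site in B 1.18 ± 0.507 and 1.36 ± 0.548 TPM. In large TADs with under 10 genes 85.7% ± 2.29 of genes passed TPM 0.1, against 89.2% ± 1.68 of genes in such TADs of the comparison class. The median TPM there was 8.13 against 11.8. TADs with 10 or more genes went the other way, with 93.2% ± 1.01 against 88.6% ± 1.77 and a median TPM of 10.2 against 7.72. Summed over genes, large TADs gave 63.1 ± 19.1 TPM per Mb against 286 ± 41.8. Only 13052 of the 21280 genes of the expression table (61.3%) could be placed, and the sums cover these alone.

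The listed developmental regulators started in large TADs more often than protein-coding genes as a whole. The lists were chosen with earlier results of these data known, so the shares are given as a description without a test. Of 75 listed developmental transcription factor genes, 19 to 27 per list (25.3% to 36%) started in a large TAD and 13 or 14 (17.3% to 18.7%) in a stable one, against 3.93% to 6.97% and 1.14% to 1.21% of all protein-coding genes. Those in stable large TADs of all 4 lists were *TCF4*, *NFIB*, *RORB*, *SOX6*, *ID2*, *RUNX1T1*, *SOX5*, *ID4*, *ZEB1*, *TBX3*, *TCF7L2*, *EBF1* and *TSHZ2*. Of 79 listed genes of neural adhesion and synapses, 17 to 28 (21.5% to 35.4%) started in a large TAD but 1 to 3 (1.27% to 3.8%) in a stable one, with *CNTNAP4* the one found in every list. Of 44 placed adipocyte genes 1 or 2 started in a large TAD, and *IRS1*, the insulin receptor substrate gene, in a stable one. Cytosolic ribosomal protein genes gave 2.35% to 9.41% in large TADs and *RPS7* alone in a stable one.

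The 12 regulators with expression values ranged from *RORB*, a nuclear receptor gene at 0.0868 to 1.19 TPM, to *EBF1*. *EBF1*, an adipocyte regulator alone in the 1020 kb of chr16:64340001-65360000, stood at 82.8 and 86.1 TPM in wild boar GOM, 141 and 169 TPM in wild boar ULB, 154 and 135 TPM in Bama pig GOM and 124 TPM in Bama pig ULB, with the depots overlapping. *NFIB* stood at 30.3 to 242 TPM, *TCF4* at 26.5 to 151 TPM and *ZEB1* at 26.2 to 122 TPM, in each case highest in Bama pig GOM replicate 1. None of the 12 tested list members in stable large TADs passed the depot or the breed test, against 3.5% and 0.446% of all 17934 genes. With 12 genes this cannot be set apart from those shares. The nearest, named after its values were seen, was *ID4*, an inhibitor of helix-loop-helix factors, at 29.5 to 94.9 TPM in GOM and 8.38 to 36.3 TPM in ULB (log2 fold change 1.58 ± 0.38, edgeR adjusted p = 0.0506). Over the whole list 13 of 58 tested genes (22.4%) passed the depot test, against 3.5% of all genes.

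The genes with the highest expression in stable large TADs were of several kinds. *RPS7*, a ribosomal protein gene, led with 1900 to 3650 TPM, a value that reads from processed copies could affect. *IGFBP7*, a secreted binding protein gene, stood at 674, 722, 523 and 591 TPM in GOM and 480, 460 and 219 TPM in ULB, without overlap but short of the threshold (log2 fold change 0.84 ± 0.27, edgeR adjusted p = 0.125). *SDC2*, a syndecan gene, stood at 102 to 173 TPM in GOM and 186 to 248 TPM in ULB (-0.81 ± 0.27, edgeR adjusted p = 0.145). *PLPP3*, a lipid phosphatase gene (109 to 302 TPM), *BTG1*, an antiproliferative gene (98.1 to 240 TPM), and *NRP1*, a semaphorin and growth factor receptor gene (70.9 to 214 TPM), overlapped between the depots.

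Between the depots, 4 of the 146 tested genes of stable large TADs (2.74%) were called by edgeR, against 3.5% of all 17934 genes and 133 of 3100 (4.29%) in stable TADs of 320 to 620 kb, and 32 had an unadjusted p under 0.05, against 3392 of the 17934. The 3 higher in GOM compare with 2.28% of all genes and the 1 lower with 1.22%. A further 12 of the 158 placed genes did not pass the filter on low values. *DPT*, which encodes the matrix protein dermatopontin, stood at 414 and 568 TPM in wild boar GOM and 471 and 274 TPM in Bama pig GOM, and at 68.1, 80.4 and 64.6 TPM in ULB, so that each GOM library lay above each ULB library (log2 fold change 2.60 ± 0.34, edgeR adjusted p = 0.0026). *ATP1B1*, a sodium pump subunit gene of the same TAD at chr4:81640001-82760000, stood at 87.2, 49.4, 80.3 and 89.0 TPM in GOM and 38.9, 20.6 and 25.2 TPM in ULB (1.34 ± 0.31, edgeR adjusted p = 0.0416). *PRKG1*, a cGMP-dependent kinase gene whose 1230 kb fill most of its TAD, stood at 22.5, 14.5, 26.9 and 25.1 TPM in GOM and 9.84, 11 and 4.75 TPM in ULB (1.40 ± 0.29, edgeR adjusted p = 0.0261).

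*MLIP*, which encodes a lamin-interacting protein of muscle, was the one called gene lower in GOM, at 0.518, 0.910, 0.468 and 0.428 TPM against 4.79, 3.49 and 3.19 TPM in ULB (-2.69 ± 0.44, edgeR adjusted p = 0.00851). Its difference ran from -3.11 to -2.31 with 1 library left out and was -2.65 without wild boar ULB replicate 1, the library with the muscle markers. The part of muscle tissue in the difference was not tested. Across 12 other settings *DPT* passed in 12, *MLIP* in 11, *PRKG1* in 8 and *ATP1B1* in 4. DESeq2 called 10 of the 146 genes (6.85%, against 7.19% of all genes). The edgeR count of 4 fell to 2 without either wild boar ULB library and to 1 without Bama pig ULB replicate 2.

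**Figure D5:**
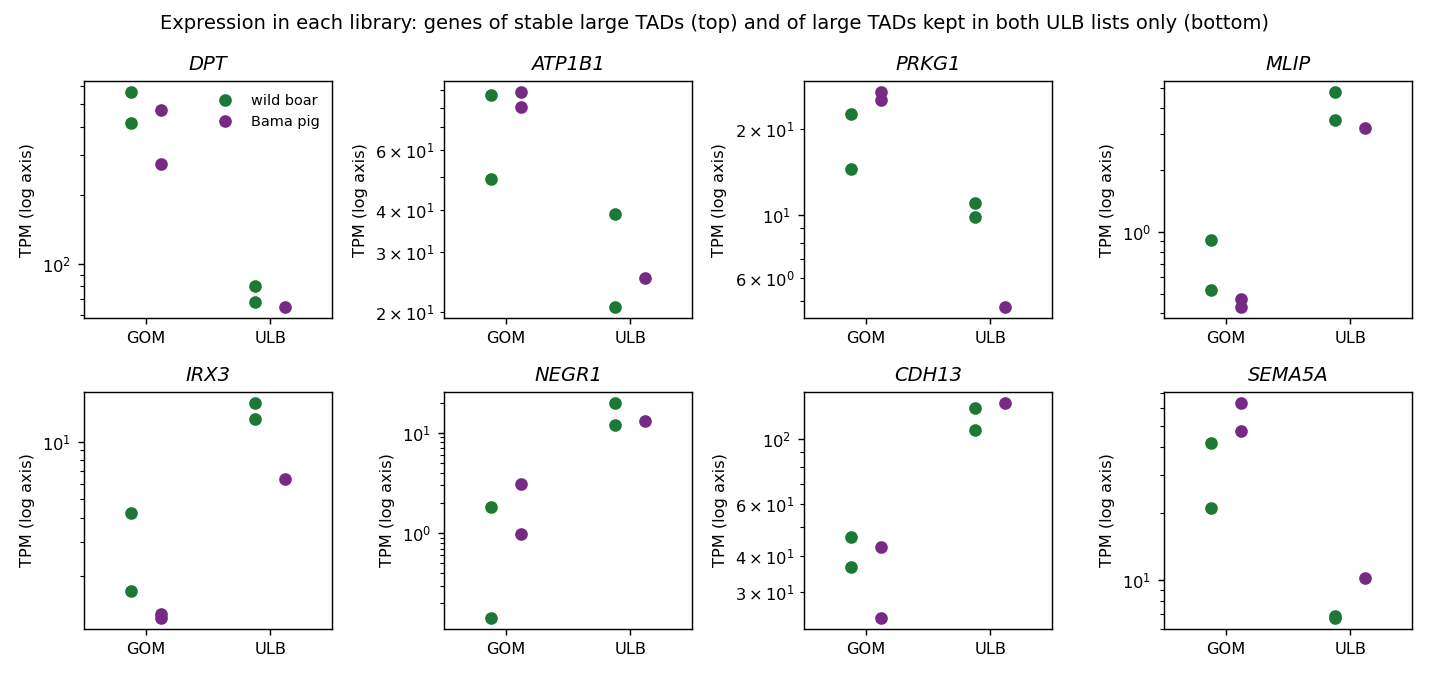
Expression in TPM on a log axis in the 4 GOM and 3 ULB libraries, 1 point per library, coloured by breed: the 4 genes of stable large TADs called between the depots (top) and 4 genes of large TADs kept in both ULB lists and split in both GOM lists (bottom). In each of the 8 panels all GOM libraries lie on one side of all ULB libraries, for example *DPT* at 274 to 568 TPM against 64.6 to 80.4 TPM. All 8 genes were called between the depots in these same libraries, so their separation adds no further support.

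Between the breeds, none of the 146 tested genes passed in edgeR over the 7 libraries, against 0.446% of all genes (0.128% higher and 0.318% lower in wild boar), although 26 had an unadjusted p under 0.05, against 3717 of the 17934, and DESeq2 called 7 (4.79%, against 5.9% of all genes). Without Bama pig GOM replicate 2 edgeR called 17 (11.6%, against 10.1% of all genes), and without wild boar GOM replicate 1 it called 1. The cause of these changes in number was not tested. In GOM alone, with 2 libraries per breed, none of 142 tested genes passed, against 0.0241% of all genes (0.012% in each direction), 10 had an unadjusted p under 0.05, against 1329 of 16615, and DESeq2 called 2 (1.41%, against 1.01% of all genes). No interaction of breed and depot passed among the 17934 genes, and 6 of the 146 had an unadjusted p under 0.05 (edgeR). The study took both depots from 2 pigs per breed. Fits over the 7 libraries count the depots of a pig as independent samples, so their breed p-values can be too small.

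The mean PC1 of the 94 stable large TADs differed between the depots in 10 (10.6%) by limma at an adjusted p of 0.05, against 10.2% of all 1944 stable TADs. Of these, 3 were higher in GOM (5.56% of all TADs) and 7 lower (4.63%). The TAD of *DPT* and *ATP1B1* had a mean PC1 of 5.31, 7.62, 6.70 and 11.2 in GOM and of -0.157, -1.14 and -4.46 in ULB, positive in each GOM library and negative in each ULB library (difference 9.64 ± 2.09 SE, limma adjusted p = 0.032). The TAD of *MLIP* had -52.2, -45.3, -48.7 and -48.3 in GOM and -34.5, -38.4 and -41.9 in ULB, in B throughout and less negative in ULB (difference -10 ± 2.33, limma adjusted p = 0.0402). In both TADs the depot with the higher PC1 was also the depot with the higher expression of the called genes. They were named after their values were seen, as the called TADs that hold a called gene. Whether PC1 and expression go together was not tested. Across 10 other settings the TAD of *DPT* passed in 3 and that of *MLIP* in 4.

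The other 8 were the TADs of *PAPPA* and *TRIM32* (12.3 ± 2.29) and of a zinc finger gene cluster with *ZNF567* (10.3 ± 2.52), both higher in GOM, and those of *MARCKS* and *HDAC2* (-16.5 ± 3.56), *PTPRM* and *LAMA1* (-14.7 ± 3.16), *TCF4* and *TXNL1* (-14.3 ± 3.15), *IRS1* and *RHBDD1* (-9.32 ± 2.17), *FAM19A2* (-9.29 ± 2.29) and one without a gene start at chr2:145720001-147120000 (-13.9 ± 1.79), all lower in GOM. *TCF4*, *IRS1*, *HDAC2* and *PTPRM* themselves did not pass the depot test (edgeR adjusted p = 0.366 to 0.654). With the animal as a replicate block limma called 1 of the 94 (1.06%, against 1.95% of all stable TADs), the TAD without a gene start, and without Bama pig ULB replicate 2 it called none of the 1944. Between the breeds limma called none of the 94, against 0.0514% of all stable TADs, with 13 at an unadjusted p under 0.05 against 252 of the 1944.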

How the data were processed

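Hi-C and RNA-seq were measured in 7 libraries each. The authors merged the replicates of each breed in each depot, called TADs from 20-kb contact matrices of Sscrofa11.1 by directionality index, divided them at insulation boundaries and deposited the coordinates. The deposited compartment score, read here as PC1, is given per library in 20-kb bins. The deposited estimated counts and TPM per gene came from kallisto 0.43.0, per the labels. The labels and the study's methods differ on the RNA library kit, and the matter is not settled here.

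Protein-coding genes were placed by their start site with the RefSeq annotation of Sscrofa11.1. Shares of A bins and of expressed genes per library used the TAD list of that library's breed and depot. A TAD was split where another list had an edge inside it more than 40 kb from both ends, so a moved end also counts as a split. Estimated counts were rounded and tested over 17934 genes with TPM above 0.1 in at least 2 libraries, by edgeR 4.0.16 (quasi-likelihood test, breed and depot as terms, Benjamini-Hochberg adjustment, adjusted p of 0.05 and absolute log2 fold change above 1). Within GOM, 16615 genes with TPM above 0.1 in both libraries of a breed were tested for breed. Mean PC1 of 1944 stable TADs was tested with limma 3.58.1 (R 4.3.3). DESeq2 1.42.0 and the other settings are given at the end. Scripts were tested on simulated data. Totals of 10833153 to 18627076 estimated counts set the depth of the RNA-seq libraries. Contact depth cannot be read from the TAD and PC1 files, and p-values measure the spread between these few libraries.

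Named genes were those of the 5 longest stable large TADs, the 8 with the highest mean TPM, up to 6 called per direction, members of fixed lists, and genes of the 5 longest TADs split in all other lists. Others are said to be picked after their values were seen, and so were the TADs named for PC1. The values of 1 called gene are not reported here. Members and lists were chosen with earlier results of these data known. Same-numbered wild boar libraries of both depots deviated together with r = 0.154 over 17934 genes, against 0.144 for wild boar and Bama pig GOM, so the numbers were not shown to pair the samples. The main edgeR and limma fits use no pairing, so their breed tests count the depots of a pig as independent samples. Breed and number together stand for the animal, as an assumption, in the sign-flip test of expressed genes and in the blocked limma fit.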

Additional observations from a re-analysis of the deposited data

Results flagged for a closer look

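In 2 genes of stable large TADs, 1 library stood far from the others of its depot. *EPHA4* stood at 4.35 TPM in wild boar GOM replicate 2 and at 9.90 to 10.9 TPM in the other 3 GOM libraries. *PLPP3* stood at 302 TPM in Bama pig GOM replicate 1 and at 109 to 123 TPM in the other 3. Of 56 groups checked, these 2 passed Dixon's criterion, which chance alone meets in about 1 in 20 groups, and the cause was not tested.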

How the results depend on the processing

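The TAD lists are pooled, so no replicate could be left out of the counts of TADs. The stable share of large TADs, 35.9% as a mean over the lists at 40 kb, was 27.3% at 20 kb, 40.9% at 60 kb and 31.0% for TADs from 1.2 Mb. From 1.2 Mb, a limit chosen for these counts after seeing the data, the TADs kept in one pair of lists and split in both others numbered 10 (GOM), 16 (ULB), 1 (wild boar) and 5 (Bama pig). Gene density in large TADs less that in the comparison class, -6.74 genes per Mb, was -6.08 against all TADs under 1 Mb and -7.4 among stable TADs. Among stable TADs the gene length ratio turned from 0.97 to 1.95 and the difference in A bins was -24.9 percentage points. Over all large TADs that difference was -30.4 percentage points, and -31.1 to -29.4 with 1 library left out. The difference in expressed genes, 0.166 percentage points, was 0.824 for TADs from 1.2 Mb, 2.3 for genes starting in A and 2.39 for genes starting in B, these last above 0 in 4 of 4 animals. It changed sign against all TADs under 1 Mb (-0.337), among stable TADs (-1.11), at TPM above 1 (-0.982, above 0 in 0 of 4 animals) and at 10 or more estimated counts (-0.0983), and ran from -0.323 to 0.655 with 1 library left out, below 0 without wild boar GOM replicate 1 or 2 (-0.12 for the latter).

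DESeq2 called 10 genes of stable large TADs between the depots (6.85%, against 7.19% of all genes), 7 between the breeds (4.79% against 5.9%) and 2 between the breeds in GOM (1.41% against 1.01%). Without a filter on low values edgeR called 4 between the breeds (2.63% against 2.57%). With 1 library left out the calls ran from 1 to 5 between the depots, from 0 to 17 between the breeds, and stayed at 0 in GOM. The PC1 calls between the depots ran from 0 to 11, with 6, 1, 3, 2 and 2 without wild boar GOM replicate 2, wild boar ULB replicates 1 and 2 and Bama pig GOM replicates 1 and 2, and rose to 17 of 89 without chromosome 10 (19.1%, against 14.7% of all stable TADs). In edgeR, a replicate block on the number left 4 called genes between the depots and 0 between the breeds, also in GOM. With breed and number together as the block, added after seeing the data, it called 5. With the animal as a replicate block limma called 1 TAD between the depots (1.06%, against 1.95% of all stable TADs). The cause of these changes was not tested.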
